A study of Rattus norvegicus with 12 samples.

Results

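NF-kappa-B is a family of transcription factors made of pairs of 5 related subunits, encoded by Nfkb1, Nfkb2, Rel, Rela and Relb. In resting cells the pairs are held in the cytoplasm by inhibitors such as those encoded by Nfkbia and Nfkbib. Receptors for cytokines and related ligands recruit Traf adaptors, kinases then mark the inhibitor for destruction, and the freed pairs switch on genes that include the inhibitors themselves, which closes a feedback loop. In the brain the pathway is best known in glia and blood vessels during inflammation, and it has also been described in neurons, where synaptic activity can engage it.

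The genes described here are these 5 subunits, the inhibitors Nfkbia, Nfkbib and Tnfaip3, and the adaptors Traf3 and Traf5, 10 genes chosen by name. Their probe sets were those whose platform annotation gives exactly 1 gene symbol equal to one of the names. This gave 10 probe sets for 9 genes, of 31042 probe sets for transcripts on the array and of 14217 genes with a single symbol. The annotation names no such probe set for Rel, so it has no value here. Traf3 has a bright and a dim probe set and each other gene has 1.

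Forebrain RNA was measured in 12 male Long Evans rats, 6 weeks old and housed singly for several days, with 1 Affymetrix array per animal. The 6 exposed animals spent 3 hours in an environment new to them that held objects of varied shape and colour, and the 6 control animals stayed in a standard laboratory cage. The labels name no transgene, drug or deletion in either group. The purpose stated in the labels is to find genes that increase on exposure. Whole forebrain mixes neurons, glia and vessels, so a change in the RNA of each cell and a change in the number of cells of a type cannot be told apart.

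Values are deposited probe set intensities in arbitrary linear units, and a change is the log2 difference exposed minus control with its standard error (SE) from a limma fit with 6 animals per group. Intensities of different probe sets cannot be set against each other, because each probe set binds with its own strength. Median intensity per array lay between 235 and 245 over the 12 arrays, and the number of arrays limits the precision. Exposed animal 3 stood apart in RNA quality. The measure is the log2 signal of the array's 3 prime controls for Gapdh and actin less that of their 5 prime controls. A higher value means a weaker 5 prime signal relative to the 3 prime signal, and so does not stand for better RNA. The measure was 0.586 in exposed animal 3, 0.391 to 0.443 in the other 5 exposed animals and 0.332 to 0.439 in control animals.

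The genes were chosen with the changes between the groups already known. Their changes are therefore a description, and an adjusted p (Benjamini-Hochberg over all 31042 probe sets) says where a probe set stands in the whole table, with no independent support from the choice. At an adjusted p under 0.05, 3 of the 10 probe sets were higher in exposed animals (Nfkb1, the bright one of Traf3, and Traf5) and 0 were lower. Of all probe sets 1.97% were higher and 0.599% lower. For the same 3 probe sets the lowest exposed animal was higher than the highest control animal, as it was for 1.98% of all probe sets. With 1 probe set per gene, the 9 measured genes had a median log2 change of 0.12, from 0.02 to 0.56, beside a median of 0 over 14217 genes. For the fit, intensities under 53.8 were raised to that floor. This fixes the change at 0 for the 5216 probe sets that do not exceed it on any array, and no member probe set was at the floor.

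**Figure D1:**
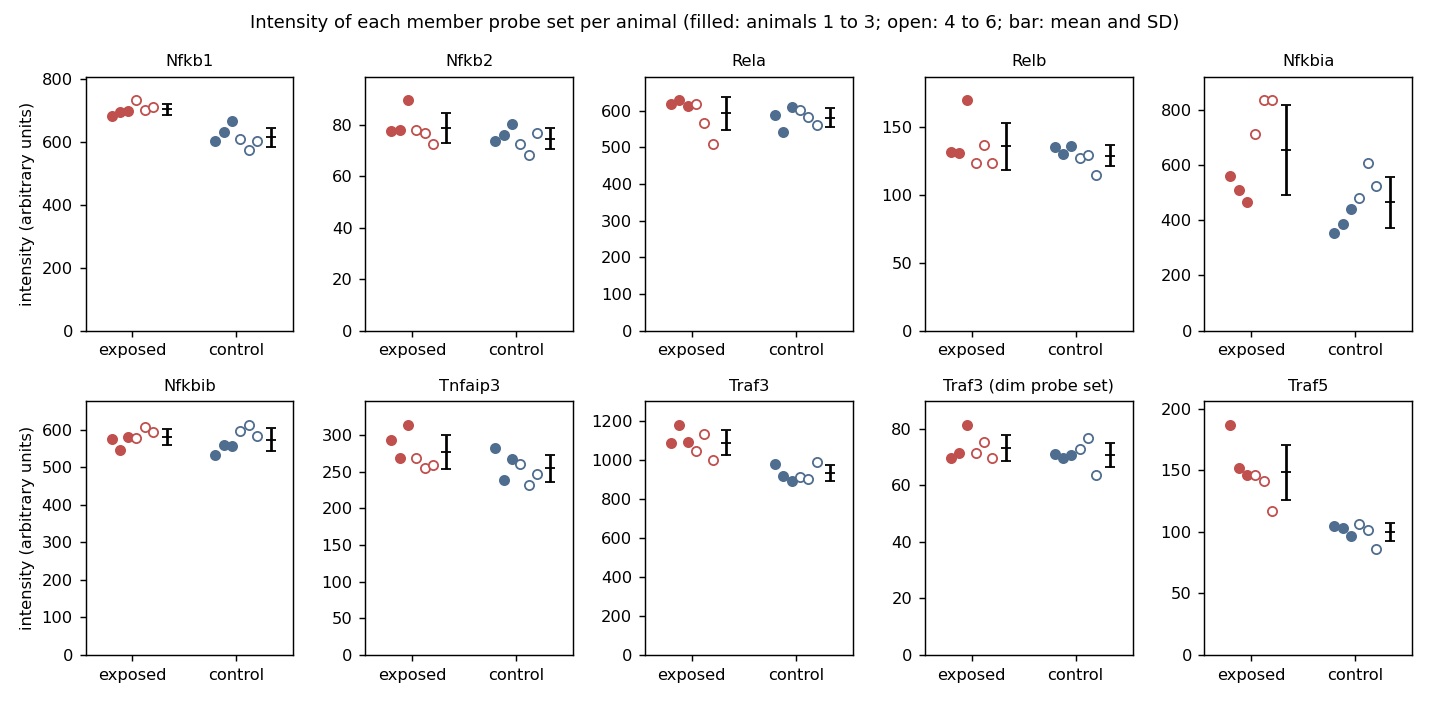
Intensity of the 10 probe sets (arbitrary units, axes from 0) in each of 6 exposed and 6 control animals. Filled points are animals numbered 1 to 3, open points animals numbered 4 to 6, and bars give the mean and SD. The groups are separate for Nfkb1, the bright Traf3 probe set and Traf5, and overlap for the other 7 probe sets.

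Because binding sites for the family's own pairs are known in the control regions of several of these genes, the 250 bases before the transcription start were read for the kappa-B consensus, a sequence of 10 bases that the pairs bind. Sequences are those of RefSeq on build GRCr8, in which 9 of the 10 genes were matched and Relb was not. The consensus was searched on both strands. It was found in 5 of the 9 windows (Nfkb2, Rel, Nfkbia, Tnfaip3 and Traf3), against 6.33% of 33469 rat promoter windows of the same length. Among the 2753 windows with at least 70% G and C the share was 12.4%. The windows of Nfkb2, Rel and Traf3 are that rich in G and C, at 70%, 80.4% and 83.2%, whereas those of Nfkbia and Tnfaip3 held 57.6% and 62.0%. Stretches of 30 bases around the match are given for 3 measured genes to show how the match differs between them, with the match in capitals, written 5′ to 3′ on the strand of the gene.
Nfkb2, chr1:255108344-255108373, plus strand: tggtattttcGGGACTTTCCtaagagcact
Nfkbia, chr6:78597084-78597113, minus strand: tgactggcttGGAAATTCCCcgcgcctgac
Traf3, chr6:136027019-136027048, plus strand: cgcgcgccctggcggcccgcGGGGATTTCC

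Tnfaip3 held 3 separate matches, more than any other measured gene, and its whole window is shown for that reason, with the matches in capitals.
Tnfaip3, chr1:15543980-15544229, minus strand: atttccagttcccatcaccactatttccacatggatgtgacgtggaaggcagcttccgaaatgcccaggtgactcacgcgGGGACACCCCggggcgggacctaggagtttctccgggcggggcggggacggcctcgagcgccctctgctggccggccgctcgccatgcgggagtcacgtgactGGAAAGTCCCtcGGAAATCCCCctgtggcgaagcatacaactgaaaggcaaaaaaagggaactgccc
In this window the first match begins 170 bases before the start, and the other two begin 67 and 55 bases before it.

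Of the genes whose probe sets passed, Nfkb1 and Traf5 held no kappa-B match in these windows. A second motif was searched on both strands, GCGGGGGCG, which transcription factors of the Egr family bind. It was found in 4 of the 9 windows (Nfkb1, Nfkb2, Traf3 and Traf5), against 2.45% of all windows and 15.8% of those with at least 70% G and C. All 4 of these windows are that rich in G and C. Of the 4 genes Nfkb2 did not pass, and its stretch is not shown. The cyclic AMP response element TGACGTCA was found in 0 of the 9 windows and in 1.59% of all windows. Stretches around the Egr motif of the 3 genes that passed are given with the match in capitals, on the strand of the gene, so that the motif reads as its reverse complement in Nfkb1 and Traf5.
Nfkb1, chr2:226805499-226805528, minus strand: ccccacctccCGCCCCCGCtgtgcgcgcgc
Traf3, chr6:136026988-136027017, plus strand: cgcgcgggcgGCGGGGGCGggcgcgctggg
Traf5, chr13:106149886-106149915, minus strand: agaagcctcaCGCCCCCGCctcttgggcgc
A match describes these letters only, and binding of a factor was not measured. The annotation also holds starts of Nfkb1, Nfkb2, Rel, Nfkbia and Traf3 farther upstream, so these windows may not be the only promoters in use.

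Among the subunits, Nfkb1 was higher in exposed animals and the other 3 measured subunits did not pass. Nfkb1 encodes a precursor that is cut to a DNA-binding subunit. Its intensity (probe set 1370968_at) was 682, 698, 701, 734, 701 and 713 in exposed animals 1 to 6, against 602, 633, 666, 610, 576 and 604 in control animals 1 to 6. Every exposed animal lay above every control animal, the closest being exposed animal 1 at 682 and control 3 at 666. The change was 0.20 ± 0.03 (SE), or 1.15-fold, with an adjusted p of 0.00761 in limma. Among animals 1 to 3 alone it was 0.13, and among animals 4 to 6 alone 0.26.

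Rela encodes the subunit that carries the transactivation domain of the most common pair. Its intensity (1372853_at) was 618, 629, 613, 620, 567 and 510 in exposed animals 1 to 6, against 590, 541, 611, 603, 582 and 562 in control animals. Exposed animals 1 to 4 lay above every control animal, number 5 lay within the control range and number 6 was the lowest of all 12. The change was 0.03 ± 0.05 (SE, adjusted p = 1 in limma), with a 95% interval from -0.09 to 0.14.

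Relb and Nfkb2 encode the subunits of the non-canonical branch, in which the Nfkb2 precursor is processed after a slower signal. For Relb (1376160_at) the intensities were 131, 131, 169, 123, 136 and 123 in exposed animals 1 to 6, against 135, 130, 136, 126, 129 and 114 in control animals. Exposed animal 3, which also had the highest RNA quality difference, was the highest by far, and the other 5 exposed animals lay within or next to the control range. The change of Relb was 0.07 ± 0.08 (SE, adjusted p = 0.854 in limma) with all animals and 0.01 without exposed animal 3. For Nfkb2 (1375989_a_at) they were 77.7, 78.2, 89.6, 78.2, 76.9 and 72.5 in exposed animals, against 73.8, 76.0, 80.5, 72.5, 68.3 and 76.7 in control animals. Exposed animal 3 was again the highest, and no other exposed animal was higher than all the control animals. The change of Nfkb2 was 0.08 ± 0.05 (SE, adjusted p = 0.6245 in limma), and 0.04 without exposed animal 3. Both probe sets are dim, with mean log2 intensity at the 37.7th and 27.0th percentile of all probe sets, and a dim probe set understates a fold change. With RNA quality as a covariate the change of Relb was -0.045. Whether RNA quality had a part in the values of exposed animal 3 was not otherwise tested.

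**Figure D2:**
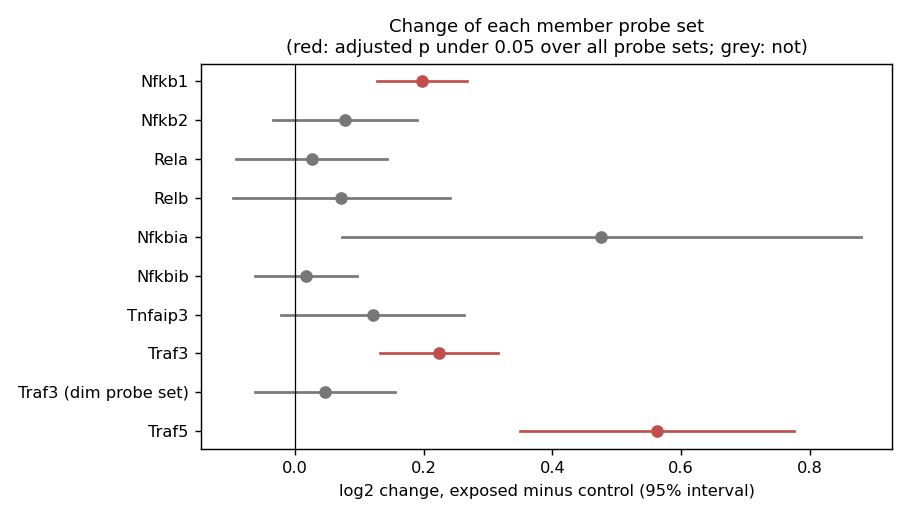
Log2 change, exposed minus control, of the 10 probe sets, with 95% intervals from limma (6 animals per group). Red marks an adjusted p under 0.05 over all probe sets. Nfkb1 (0.20), the bright Traf3 probe set (0.22) and Traf5 (0.56) are red, and Nfkbia (0.48) is grey with the widest interval.

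Among the inhibitors, none passed, although Nfkbia had the second largest change of the 9 genes. Nfkbia encodes the inhibitor that NF-kappa-B itself induces, and glucocorticoid hormones are known to induce it as well. Its intensity (1389538_at) was 561, 509, 468, 714, 835 and 834 in exposed animals 1 to 6, against 353, 386, 441, 479, 607 and 525 in control animals. The groups overlapped, since only exposed animals 4, 5 and 6 were higher than all 6 control animals. The mean was 653 ± 163 in exposed animals and 465 ± 93.1 in control animals (SD, n = 6 each), the widest relative spread within groups among the 10 probe sets. The change was 0.48 ± 0.18 (SE), or 1.39-fold, with an unadjusted p of 0.0249 and an adjusted p of 0.266 in limma.

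The spread of Nfkbia followed the animals' numbers in the labels. In the exposed group each animal numbered 4 to 6 was above each animal numbered 1 to 3, and the same held in the control group. What the numbering means is not stated in the labels, and this split was chosen after the data had been seen. The log2 difference of animals 4 to 6 minus animals 1 to 3 was 0.63 in the exposed group and 0.45 in the control group. With the group as a term in limma this difference was 0.54 ± 0.08 (SE), with an unadjusted p of 8.2e-05 and an adjusted p of 0.0873 over all probe sets. Of all probe sets 3, or 0.00966%, were higher in animals 4 to 6 at an adjusted p under 0.05 and 0 were lower.

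Within animals 1 to 3 the change of Nfkbia between the groups was 0.38, with all 3 exposed above all 3 control animals, and within animals 4 to 6 it was 0.57, again with no overlap. With the number set as a term in limma, the change was 0.48 and its adjusted p 0.0137. That fit placed 2.30% of all probe sets as higher. Since the split was chosen after the data had been seen and divides the values of Nfkbia within both groups, the term takes up its spread. This adjusted p therefore gives no independent support. The difference of the change between the sets gave an unadjusted p of 0.297 for Nfkbia in the limma interaction, and 0 of 31042 probe sets passed that interaction test after adjustment. Among the members the unadjusted p of the interaction was under 0.05 for Nfkb1 (0.0351) and for no other probe set.

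The genes whose values over the 12 animals were most like those of Nfkbia were looked up after its values had been seen. Likeness was the root mean square difference of log2 intensity, each gene centred on its own mean, over 12 animals and 10616 genes with a mean log2 intensity of at least 7. The closest was Ddit4, a stress-responsive inhibitor of the mTOR pathway, at 0.123, where Nfkbia itself spanned 1.24 between its lowest and highest animal. Plekhf1, at 0.167, and Zfp189, at 0.167, came next. Ddit4 had 1949, 1870, 1491, 2510, 2420 and 2644 in exposed animals 1 to 6, against 1355, 1360, 1331, 1794, 1932 and 1854 in control animals. Because Ddit4 was picked for values like those of Nfkbia in the same animals, its likeness in either respect follows from the choice and is no second instance. As a description, its log2 difference of animals 4 to 6 minus animals 1 to 3 was 0.49 and its change between the groups 0.41.

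**Figure D3:**
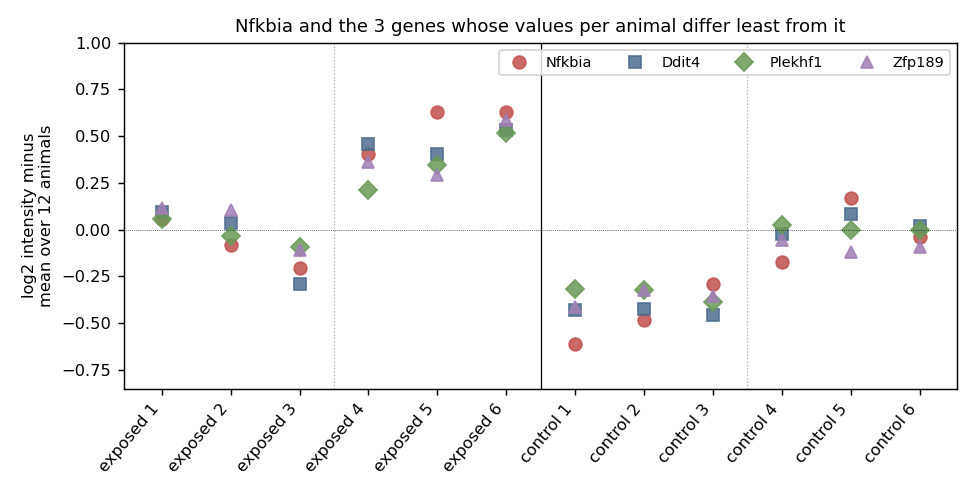
Log2 intensity of Nfkbia, Ddit4, Plekhf1 and Zfp189 in each animal, minus the gene's mean over 12 animals. The solid line divides exposed from control animals and dotted lines divide animals 1 to 3 from 4 to 6. The last 3 genes were picked for their likeness to Nfkbia, and all 4 are higher in animals 4 to 6 than in animals 1 to 3 of the same group.

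Nfkbib encodes a second inhibitor that responds less to the pathway's own output. Its intensity (1367943_at) was 575, 547, 581, 578, 607 and 593 in exposed animals 1 to 6, against 533, 559, 557, 597, 613 and 582 in control animals. No exposed animal lay above every control animal. The change was 0.02 ± 0.04 (SE, adjusted p = 1 in limma), with a 95% interval from -0.06 to 0.10. Nfkbib too was higher in animals 4 to 6 than in animals 1 to 3. With the group as a term in limma this difference was 0.09 ± 0.02 (SE, unadjusted p = 0.00322, adjusted p = 0.271).

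Tnfaip3 encodes a ubiquitin-editing enzyme that shuts down signalling upstream of the kinases and is a classic NF-kappa-B target. Its intensity (1385641_at) was 294, 269, 315, 270, 255 and 259 in exposed animals 1 to 6, against 282, 239, 268, 260, 232 and 247 in control animals. The 2 exposed animals above every control animal were numbers 1 and 3. The change was 0.12 ± 0.06 (SE, adjusted p = 0.492 in limma) and the 95% interval ran from -0.02 to 0.26. Tnfaip3 was lower in animals 4 to 6 than in animals 1 to 3. With the group as a term in limma this difference was -0.13 ± 0.05 (SE, unadjusted p = 0.0424, adjusted p = 0.564).

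Both adaptors among the chosen genes passed with their brightest probe set. Other Traf genes, read from the list of other adaptors and kinases, did not pass in limma. They were Traf1 (-0.02), Traf2 (0.02), Traf4 (-0.10, adjusted p = 0.477) and Traf6 (0.05, adjusted p = 0.697). Traf3 restrains the non-canonical branch by keeping its kinase, the product of Map3k14, at a low level. Its bright probe set (1373482_at) had 1090, 1184, 1094, 1046, 1134 and 1000 in exposed animals 1 to 6, against 981, 922, 893, 913, 906 and 989 in control animals. The groups did not overlap, though exposed animal 6 at 1000 and control 6 at 989 were close. The change was 0.22 ± 0.04 (SE), or 1.17-fold (adjusted p = 0.0171 in limma). The dim Traf3 probe set (1395434_at) had 69.5, 71.3, 81.4, 71.3, 75.1 and 69.5 in exposed animals, against 70.9, 69.6, 70.7, 72.8, 76.8 and 63.5 in control animals. Its groups overlapped, with a change of 0.05 ± 0.05 (SE, adjusted p = 0.856 in limma), and its mean log2 intensity was at the 25.6th percentile of all probe sets. Which transcript forms the 2 probe sets read was not looked up, and the difference between them was not tested.

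Traf5, an adaptor for receptors of the tumour necrosis factor family, had the largest change of the 9 genes. Its intensity (1377169_at) was 187, 152, 146, 146, 141 and 117 in exposed animals 1 to 6, against 104, 103, 96.8, 107, 102 and 86.0 in control animals. The lowest exposed animal, number 6 at 117, was still above the highest control animal, number 4 at 107. The change was 0.56 ± 0.10 (SE), or 1.48-fold (adjusted p = 0.0105 in limma), and 0.67 within animals 1 to 3 and 0.46 within animals 4 to 6. The probe set is dim, at the 36.1st percentile of all probe sets, and with every value raised to at least the 40th percentile of all intensities the change was 0.06 (adjusted p = 0.941 in limma). Such a floor sets all lower values to the same value. It lies above the mean of this probe set and above all 6 control values of Traf5. The smaller change therefore follows from the floor, and this fit cannot show whether Traf5 changed.

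By the same measure of likeness, the gene closest to Nfkb1 was Chsy1, a chondroitin synthase gene, at 0.033 over 12 animals, where Nfkb1 spanned 0.349. Pitpnm3 and Xpo1, the gene of a nuclear export receptor, followed at 0.051 and 0.052. Closest to Traf3, which spanned 0.407, were Zdhhc5 at 0.044, Preb at 0.050 and Smurf1 at 0.053. Closest to Traf5, which spanned 1.12, were Gne, a gene of sialic acid synthesis, at 0.116, Nab2, a corepressor of Egr factors, at 0.119 and Ubash3b at 0.120. These 9 genes were picked for likeness over exposed and control animals together, so a change between the groups near that of the member follows from the choice. Their log2 changes are given as a description, at 0.13 to 0.22 for the 3 nearest Nfkb1, 0.16 to 0.19 for those nearest Traf3 and 0.44 to 0.54 for those nearest Traf5.

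Whether the genes varied together within the groups is a question that the choice of genes did not use. For each of the 36 pairs of the 9 genes, deviations from the group mean were correlated over 12 animals, with a permutation test within groups. After Benjamini-Hochberg adjustment over the 36 pairs 0 passed, and 5 had an unadjusted p under 0.05. The smallest p was that of Nfkbia and Nfkbib, with Pearson r = 0.790 (permutation p = 0.00149, adjusted p = 0.0536) and Spearman rho = 0.783 (permutation p = 0.00441, adjusted p = 0.0976). Without the 2 animals farthest from the median of Nfkbia, r was 0.865 and rho 0.867 (permutation p = 0.00158 and 0.00079, adjusted p = 0.0569 and 0.0284).

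The most negative r of the 36 pairs was that of Nfkbia and Tnfaip3, at -0.741 (permutation p = 0.0114, adjusted p = 0.205) and rho = -0.797 (permutation p = 0.00542, adjusted p = 0.0976). Without the 2 farthest animals r was -0.537. With the means of the number sets removed as well, r was 0.507 for Nfkbia with Nfkbib (permutation p = 0.16) and -0.511 for Nfkbia with Tnfaip3 (permutation p = 0.164), so neither relation held within the number sets at 0.05.

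The rest of the pathway was read from 4 lists of textbook genes, with 1 probe set per gene. Over all genes 2.62% were higher and 0.844% lower at an adjusted p under 0.05 in limma. Of the ligands and receptors 0 of 18 passed in either direction (2 had an unadjusted p under 0.05), with a median change of 0. On at least 1 array 8 of these 18 were at the floor of 53.8. On all 12 arrays 4 of the 18 were at it, which fixes the change of these 4 at 0. The smallest p values were those of the receptor gene Tnfrsf1a (-0.13, adjusted p = 0.329), the lymphotoxin gene Ltb (-0.13, adjusted p = 0.369), Il1a (0.06, adjusted p = 0.491) and Tnfrsf11a (0.22, adjusted p = 0.567). Il1a was at the floor on 6 of 12 arrays, which limits the change that can be read for it. The ligand gene Il1b, named after its values were seen, was at the floor of 53.8 used for the fit on 10 of 12 arrays. The other ligand gene named so, Tnf, was at 87.8 to 107 in exposed animals and 85.7 to 105 in control animals.

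Of the other adaptors and kinases 1 of 25 rose and 0 fell, with a median change of 0. The one that rose was Irak2, a kinase-like adaptor of interleukin and Toll-like receptors. It was at 240 to 282 in exposed animals and 191 to 233 in control animals, with no overlap (change 0.37 ± 0.06 SE, adjusted p = 0.00713 in limma). Map3k14, the kinase gene of the non-canonical branch, also had no overlap, at 240 to 330 in exposed animals and 200 to 238 in control animals, and missed the threshold (0.30, adjusted p = 0.0610 in limma). Tab1 (-0.10, adjusted p = 0.109) and Map3k7 (-0.05, adjusted p = 0.398), partners in the kinase complex above the inhibitor kinases, follow in this list. Without exposed animal 6 the count that rose was 2.

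Of the further inhibitors 0 of 16 passed (3 had an unadjusted p under 0.05 in limma), with a median of -0.02. The smallest p values belonged to Nfkbid (0.25, adjusted p = 0.125), Irak3 (-0.14, adjusted p = 0.197), Nfkbil1 (-0.07, adjusted p = 0.234) and the deubiquitinase gene Cyld (-0.07, adjusted p = 0.467). Of 38 genes known as NF-kappa-B targets 3 rose and 0 fell, with a median of 0, and 9 of the 38 were at the floor on all 12 arrays. The 3 were Ptgs2 (1.26, adjusted p = 6.9e-06), Gadd45b (1.18, adjusted p = 2.72e-05) and Cebpd (0.37, adjusted p = 0.0412), and Bcl2l1, an inhibitor of apoptosis, was next (0.12, adjusted p = 0.163). Ptgs2 encodes the inducible cyclooxygenase, Gadd45b a stress signalling protein and Cebpd a transcription factor of inflammation, and neuronal activity is also known to induce Ptgs2 and Gadd45b. With 1 animal left out in turn, the count of targets that rose was 2 to 4. It was 4 without exposed animal 3 and 2 without any other single animal.

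**Figure D4:**
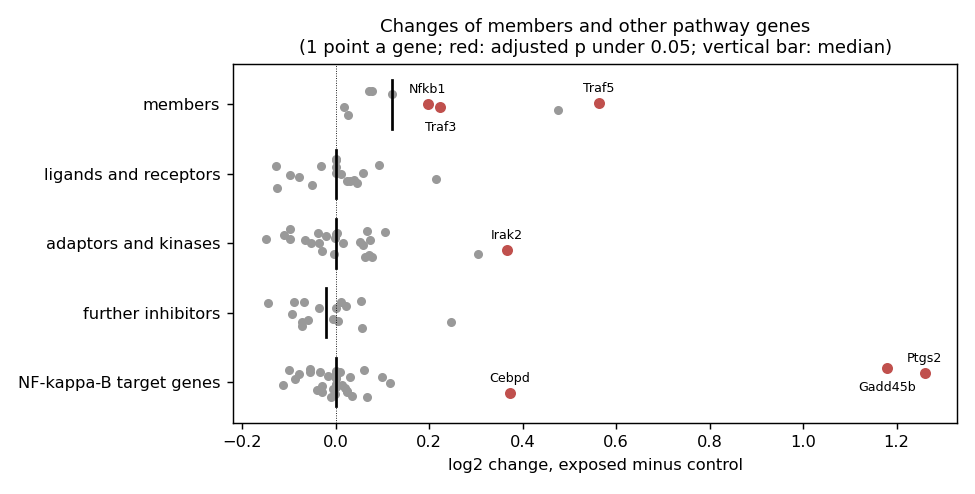
Log2 change, exposed minus control, of the 9 measured members and the genes of 4 pathway lists, 1 point per gene. Red points have an adjusted p under 0.05 over all probe sets and vertical bars are medians. The members' median is 0.12, and the medians of the lists are 0, 0, -0.02 and 0. Genes at the floor of the fit on all arrays lie at 0.

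Markers of cell types were set beside these values. The mean log2 level of 20 endothelial and mural markers was 8.62 ± 0.05 in exposed animals (range 8.56 to 8.69) and 8.71 ± 0.05 in control animals (8.63 to 8.78, SD, n = 6 each). The exact two-sided permutation test gave p = 0.0130, or 0.104 after adjustment over the 8 marker lists. Of these 20 genes 3 had a positive change, 6 had an unadjusted p under 0.05 in limma, and the median change was -0.09. None of the 20 was at the floor on any array. After adjustment 1 of them passed as lower, Slco1a4, a transporter gene of the blood-brain barrier (change -0.29, adjusted p = 0.00364 in limma). With the mean level of the 20 markers as a covariate the change of Nfkb1 was 0.20 (adjusted p = 0.0924), that of Traf5 0.54 (0.138), that of Traf3 0.31 (0.0177) and that of Nfkbia 0.35 (0.767). The part of the vessel markers in these results was not otherwise tested.

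Of 16 microglia markers 0 passed (1 had an unadjusted p under 0.05 in limma), and Tmem119 had the smallest p (0.21, adjusted p = 0.192). Their mean level was 8.74 to 8.87 in exposed animals and 8.76 to 8.85 in control animals (exact permutation p = 0.576). With it as a covariate Nfkb1, Traf3 and Traf5 kept an adjusted p under 0.05 (0.0134, 0.0150 and 0.00890). The level of the 10 meningeal and fibroblast markers was 10.06 ± 0.09 in exposed animals and 10.17 ± 0.07 in control animals (SD, n = 6 each), a difference of -0.11. The exact two-sided permutation test gave p = 0.0433, or 0.173 after adjustment over the 8 lists, and 3 of 6 exposed animals were below all the control animals. Of these 10 genes 1 had a positive change and the median change was -0.13. The part of these markers in the members' values was not tested. No gene passed among the markers of astrocytes, neurons, oligodendrocytes, blood and neutrophils, choroid plexus, and meninges and fibroblasts. The smallest p of each of these lists belonged to Gjb6 (0.13), Nefm (0.12), Opalin (-0.15), Camp (-0.18), Otx2 (0.23) and Col1a2 (-0.16), each with an adjusted p of at least 0.141 in limma. The level of the 14 neuron markers, which define much of this tissue, was 12.40 to 12.48 in exposed animals and 12.42 to 12.49 in control animals.

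RNA quality was 0.450 ± 0.070 in exposed animals and 0.389 ± 0.047 in control animals (SD, n = 6 each, exact two-sided permutation p = 0.0823). With it as a covariate the change of Traf3 was 0.20 (adjusted p = 0.0788). Nfkb1 (0.19, adjusted p = 0.0385) and Traf5 (0.56, adjusted p = 0.0421) kept an adjusted p under 0.05, and Nfkbia had a change of 0.715 (adjusted p = 0.0549).

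**Figure D5:**
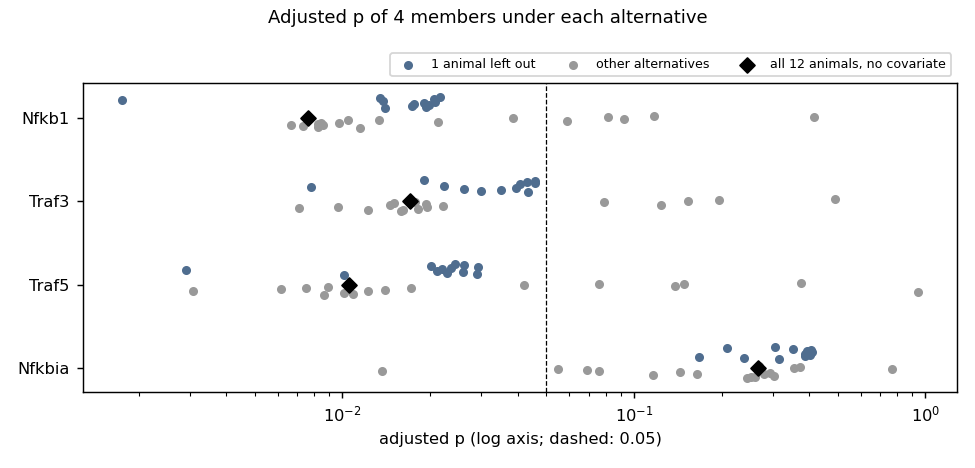
Adjusted p (log axis) of the brightest probe set of Nfkb1, Traf3, Traf5 and Nfkbia in the fit of all 12 animals (diamond), with 1 animal left out (blue) and under the other alternatives (grey). Nfkb1, Traf3 and Traf5 stay left of the dashed line at 0.05 in all 12 fits with 1 animal left out, and Nfkbia in 0 of 12.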

How the data were processed

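Per the labels' protocols, forebrain RNA was extracted with Trizol, cleaned on RNeasy columns and labelled with biotin by the standard Affymetrix procedure. The deposited table holds 1 linear intensity per probe set and array, from 12.6 to 34828. The authors' background correction, probe summary and normalization are not stated in the labels or the file. Log2 medians of the 12 arrays lay between 7.87 and 7.94, so no further normalization was applied. Intensities were raised to their 20th percentile (53.8), transformed to log2 and fitted with the group as the only term in limma 3.58.1 (R 4.3.3, eBayes with a trend). Benjamini-Hochberg adjustment covered 31042 probe sets, without 57 array controls. The fit was tested on simulated data. A gene is read from its probe set with the highest mean. Genes named outside the members were set by rule: up to 4 per pathway list and 1 per marker list by smallest p, and the 3 genes most like each member that passed. Outside this rule Ddit4, Plekhf1, Zfp189, Il1b, Tnf, Traf1, Traf2, Traf4 and Traf6 were named after their values were seen. Marker levels used exact permutation tests over the 924 assignments of animals, and correlations 100000 resamples (Python 3.11.15, scipy 1.17.1). The labels call the samples animals, so each array is 1 animal. The fit used no pairing of same-numbered animals of the 2 groups, whose deviations had correlations from -0.077 to 0.160. These were not set against the correlations of differently numbered animals, so whether the numbers mark pairs was not tested. Members and lists were chosen with earlier results of these data known.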

Additional observations from a re-analysis of the deposited data

Results flagged for a closer look

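Within groups of 6, the highest animal stood apart from the rest in 4 of the 38 groups of values examined, by the gap to its nearest neighbour divided by the whole range (above Dixon's 95% critical value for 6 values). Chance flags about 1 in 20 such groups. Exposed animal 3 gave the highest Relb value (gap 0.713) and the highest Nfkb2 value (0.668), and it also had the highest RNA quality difference (0.735). Exposed animal 6 had the highest level of blood and neutrophil markers in its group (0.79), at 8.02 against 7.61 to 7.70 in the other 5 exposed animals, while control animals ran from 7.53 to 8.32.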

How the results depend on the processing

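Over 29 alternatives Nfkb1 and the bright Traf3 probe set kept an adjusted p under 0.05 in 24 each, Traf5 in 23 of the 28 that held its probe set, and Nfkbia reached it in 1, with the number set as a term. Among the alternatives where Traf5 did not keep it is the floor at the 40th percentile, which most of its values do not reach. The number set is a split chosen after the data had been seen, so its call of Nfkbia gives no independent support. The count of member probe sets that were higher was 3 with any 1 animal left out and 4 with the number set as a term. It was 1 with the replicate block (animal number), 1 with the endothelial covariate and 0 without control 4 and exposed 3 and 5, arrays picked because earlier results of these data had set them apart. It was also 0 within animals 1 to 3 only and 0 within animals 4 to 6 only, alternatives chosen after seeing the data that keep 6 arrays each. With the replicate block Traf5 passed (adjusted p = 0.0172) and Nfkb1 (0.0590) and Traf3 (0.124) did not; no other member call changed with it. Without control 4 and exposed 3 and 5 the adjusted p was 0.0812 for Nfkb1, 0.153 for Traf3 and 0.0761 for Traf5. The count of all higher probe sets was 451 to 622 with 1 animal left out, 359 with the replicate block, 289 with the endothelial covariate, and 66 and 31 within animals 1 to 3 and 4 to 6. The count of lower ones was 186 in the fit of all animals, 103 to 182 with 1 left out, 314 with array weights, 76 with the replicate block, 21 with the endothelial covariate, 72 with the RNA quality covariate, 82 without the 3 arrays, and 9 and 2 within the number sets. The count of other adaptors and kinases that rose was 1 to 2 with 1 animal left out, 2 without the dimmest 40% of probe sets, 2 without those at the floor on all arrays, and 0 within either number set. For target genes it was 1 within either number set, and 2 to 4 with 1 animal left out. Changes that turned sign had not passed before or after. They were Rela within animals 4 to 6 (-0.0449), Relb with RNA quality (-0.045) and without the 3 arrays (-0.0184), Nfkbib with the endothelial covariate (-0.0229), within animals 4 to 6 (-0.0112) and without control 1 (-0.0035; -0.0035 to 0.0371 over the fits with 1 animal left out), and the astrocyte marker level without exposed animal 2 (-0.0055, range -0.0055 to 0.023). The RNA quality difference ran from 0.0338 without exposed animal 3 to 0.0728 without exposed animal 4, and was past 0.05 only without control 1. The causes were not tested. Dim probe sets limit what can be seen for Nfkb2, Relb, Traf5 and the dim Traf3 probe set.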
